A study of Mus musculus with 15 samples.

Results

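The genes described are 38 mouse genes of the p53 response and of apoptosis, found by symbol among the 24490 genes of the count files: Trp53 itself with its inhibitors Mdm2 and Mdm4, 12 p53 targets of arrest and stress, 3 death receptors, 9 pro-death and 3 pro-survival genes of the Bcl2 family, 5 genes of the caspases and the apoptosome, and 3 inhibitors of apoptosis. All 38 had enough counts to be tested, among 14907 tested genes. They were measured by poly(A) RNA sequencing in primary granulosa cells, the somatic cells that surround the oocyte in the follicle, from ovaries of 8-week-old RjOrl:SWISS females. The 15 libraries formed 5 groups of 3: Foxl2 siRNA at 30 h, Foxl2 siRNA at 54 h, Esr2 siRNA at 30 h, and scrambled (non-targeting) siRNA at 30 h and at 54 h. Every group received 30 pmol of siRNA with Lipofectamine RNAiMax in 6-well plates, the scrambled groups included. Foxl2 encodes a forkhead transcription factor that maintains granulosa cell identity, and Esr2 encodes oestrogen receptor beta. The times are those of the library titles, since the extraction protocol names only 30 h. The labels describe several pools of 3 siRNAs per target, list the same catalogue numbers for both targets, and do not say which pool entered which library. Separate cultures or animals are not stated for the 3 libraries of a group either, so the p-values rest on a spread that may be technical.

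The p53 protein is a transcription factor that is kept low by MDM2 and, when stabilised by stress or DNA damage, activates genes that stop the cell cycle, repair damage or start cell death. In the mitochondrial pathway of apoptosis, BH3-only proteins release BAX and BAK1 from BCL2, BCL-XL and MCL1, cytochrome c leaves the mitochondria, and APAF1 assembles the apoptosome that activates caspase 9. Death receptors activate caspase 8 instead, and inhibitor-of-apoptosis proteins restrain caspases and death receptor signalling. Granulosa cell apoptosis is the main way in which ovarian follicles are lost by atresia.

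Libraries held between 44976872 and 59550065 gene counts. Levels are TMM-normalised CPM (library size scaled by the trimmed mean of M-values; below CPM), and changes are log2 ratios ± standard error from edgeR's quasi-likelihood fit. Adjusted p-values are Benjamini-Hochberg values over all tested genes, and those under 0.05 count as called. Foxl2 stood at 33.8, 28.4 and 65.4 CPM in Foxl2 siRNA libraries and at 174, 152 and 143 CPM in scrambled libraries at 30 h. At 54 h it stood at 33.7, 57.5 and 25.2 CPM after Foxl2 siRNA, against 189, 154 and 166 CPM in scrambled libraries. Replicate 3 at 30 h and replicate 2 at 54 h therefore kept the most Foxl2 of the Foxl2 siRNA libraries, and where leaving both out changes an edgeR call, that value is given too. Esr2 stood at 12.9, 14.5 and 13.9 CPM after Esr2 siRNA, against 60.6, 60.4 and 61.6 CPM in scrambled libraries. Both transcripts were lower after either siRNA. Per kilobase of exon, Esr2 averaged 9.87 CPM after Foxl2 siRNA and 18.1 CPM in scrambled libraries at 30 h, and 8.21 and 20.4 CPM at 54 h. Foxl2 averaged 36.2 CPM per kilobase after Esr2 siRNA and 48.1 CPM per kilobase in scrambled libraries at 30 h. Of the granulosa markers, Inha averaged 1913 CPM in scrambled libraries at 30 h, whereas Fshr averaged 0.408, Amh 0.262 and Cyp19a1 2.86 CPM. The summed level of 12 granulosa markers was 2752 to 4059 CPM after Foxl2 siRNA, 3102 to 3179 CPM after Esr2 siRNA and 4275 to 4714 CPM in scrambled libraries at 30 h. At 54 h it was 2442 to 3571 CPM after Foxl2 siRNA and 4968 to 5026 CPM in scrambled libraries. These 12 include Foxl2 and Esr2. After Foxl2 siRNA 0 were called higher and 4 lower at 30 h, and 1 higher and 7 lower at 54 h. After Esr2 siRNA 0 of the 12 were called higher and 1 lower. Per kilobase at 54 h, Gja1 averaged 18.7 CPM after Foxl2 siRNA and 162 CPM in scrambled libraries, and Inha 1187 and 1315 CPM. The summed level of 10 markers of the ovarian surface epithelium was 628 to 690 CPM after Foxl2 siRNA and 450 to 475 CPM in scrambled libraries at 30 h, and 1017 to 1099 CPM after Foxl2 siRNA and 413 to 486 CPM in scrambled libraries at 54 h. After Foxl2 siRNA, 7 of these 10 markers were called higher and 0 lower at 54 h, and 3 higher and 0 lower at 30 h. Cdh1, 1 of the 10, averaged 0.447 CPM after Foxl2 siRNA and 0.783 CPM in scrambled libraries at 54 h. Per kilobase, Krt8 (102 CPM), Krt18 (90.4 CPM) and Wt1 (15.6 CPM) stood highest of the 10 in scrambled libraries at 30 h. The sums reached at most 8.52 CPM for 8 leukocyte markers and 14.2 CPM for 6 endothelial markers in any library. The sum of 8 theca and stroma markers differed severalfold between replicates: it was 189 to 627 CPM after Foxl2 siRNA, 130 to 476 CPM after Esr2 siRNA and 150 to 500.0 CPM in scrambled libraries at 30 h, and 273 to 794 CPM after Foxl2 siRNA and 193 to 626 CPM in scrambled libraries at 54 h. A smaller number of cells of one type and less RNA per cell cannot be told apart in such bulk libraries.

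**Figure D1:**
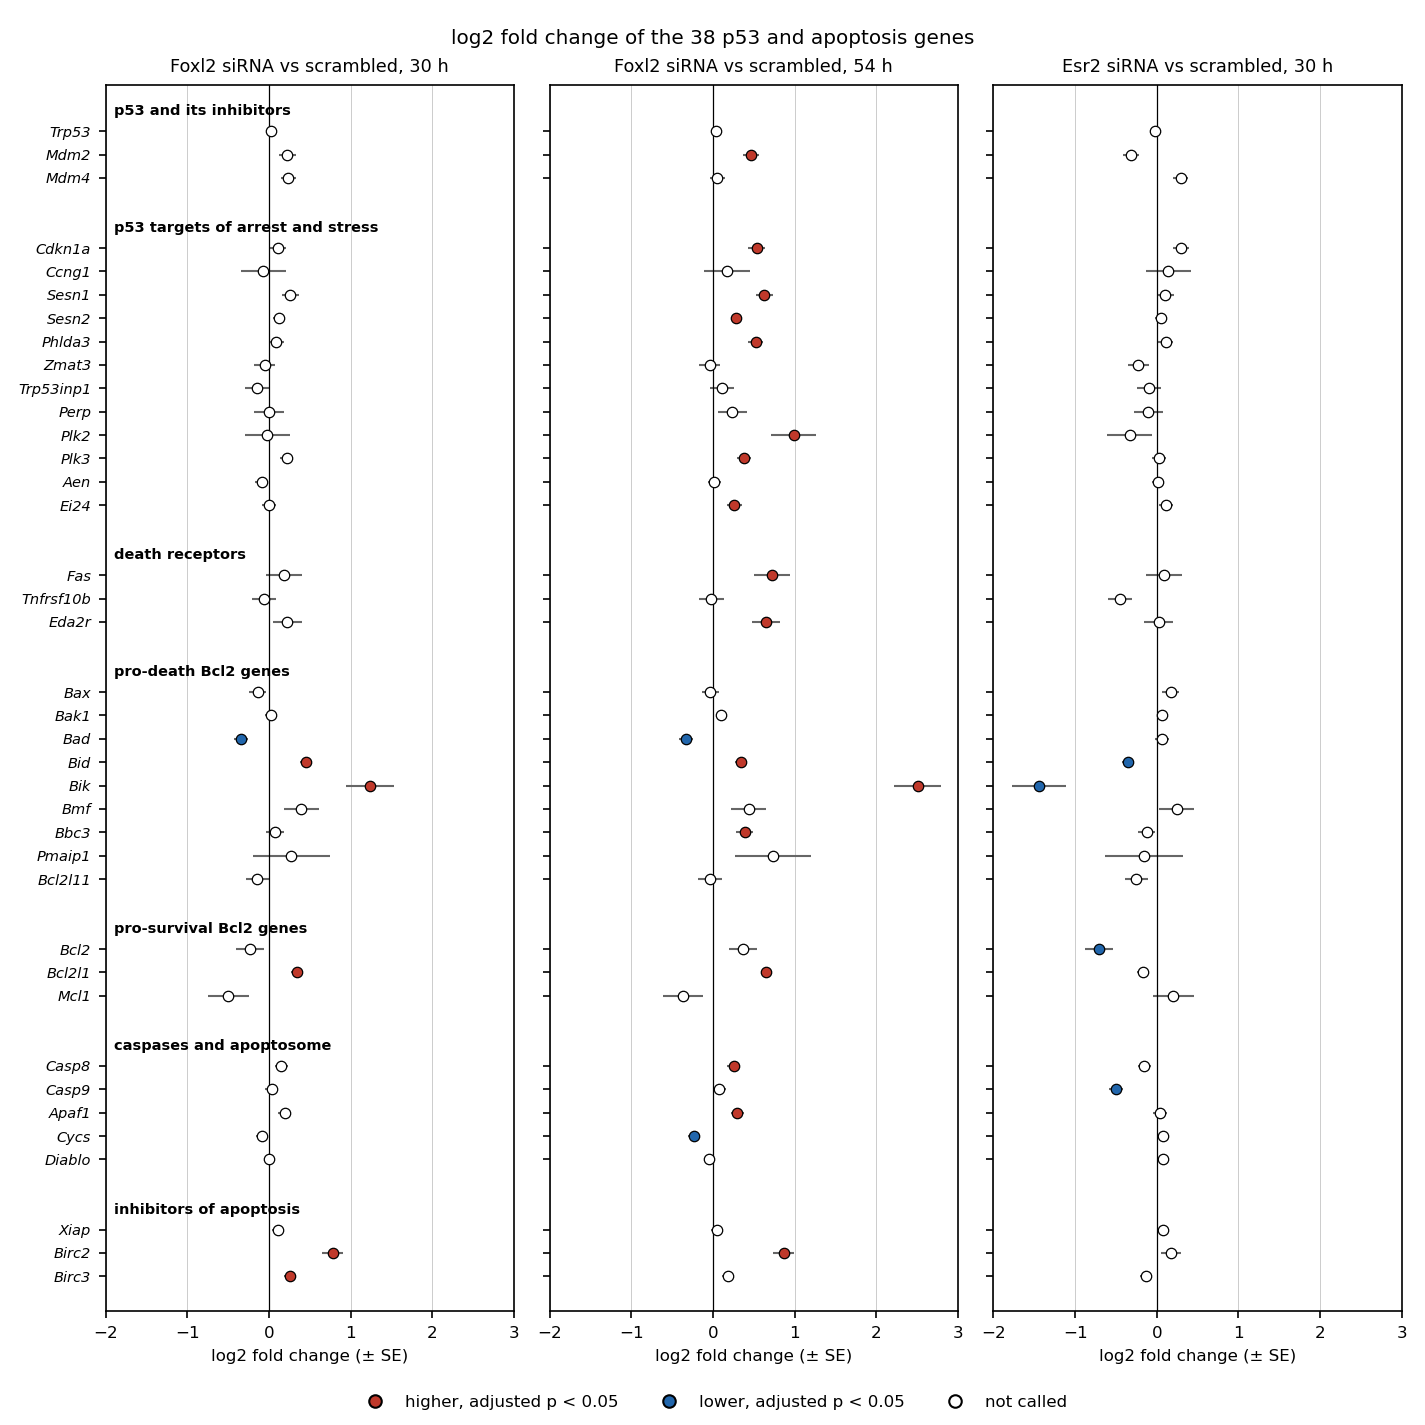
Log2 change of each of the 38 genes (points, with bars for the standard error) in the Foxl2 siRNA comparisons at 30 h and 54 h and in the Esr2 siRNA comparison at 30 h, ordered by class. At 54 h 7 of the 12 p53 targets lay above 0 with a call and none below, and Bik had the largest change, 2.51 on the log2 scale.

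Promoter sequences are shown for Cdkn1a, Mdm2, Sesn1 and Bax, each of which holds the p53 motif in the 250 bases upstream of a start site. The first 3 were called higher by edgeR after Foxl2 siRNA at 54 h and Bax was called by edgeR in no comparison. These are not the genes of largest change. Plk2, Birc2, Fas, Bcl2l1 and Eda2r were called with larger changes at 54 h, and their windows held no p53 motif. The windows are from RefSeq on GRCm38.p6 (mm10), in the direction of the gene. That of Cdkn1a is at chr17:29090729-29090978 on the plus strand (upstream of the earlier of its start sites). Mdm2 is at chr10:117710759-117711008 on the minus strand. Sesn1 is at chr10:41887189-41887438 on the plus strand (upstream of the later of its start sites) and Bax at chr7:45466899-45467148 on the minus strand. The window of the later Cdkn1a start site held no p53 motif. Capitals mark matches to the p53 consensus half-site and, in Mdm2 alone of these 4, to the forkhead core GTAAACA.
Cdkn1a: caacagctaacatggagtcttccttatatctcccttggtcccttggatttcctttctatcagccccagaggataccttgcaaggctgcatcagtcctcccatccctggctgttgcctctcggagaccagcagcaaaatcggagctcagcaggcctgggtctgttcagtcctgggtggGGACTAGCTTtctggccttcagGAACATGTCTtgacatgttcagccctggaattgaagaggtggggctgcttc
Mdm2: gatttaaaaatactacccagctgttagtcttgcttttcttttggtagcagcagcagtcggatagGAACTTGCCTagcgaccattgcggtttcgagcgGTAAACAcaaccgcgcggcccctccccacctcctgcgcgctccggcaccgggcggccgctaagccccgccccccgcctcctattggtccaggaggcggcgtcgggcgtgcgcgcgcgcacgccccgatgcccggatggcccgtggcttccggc
Sesn1: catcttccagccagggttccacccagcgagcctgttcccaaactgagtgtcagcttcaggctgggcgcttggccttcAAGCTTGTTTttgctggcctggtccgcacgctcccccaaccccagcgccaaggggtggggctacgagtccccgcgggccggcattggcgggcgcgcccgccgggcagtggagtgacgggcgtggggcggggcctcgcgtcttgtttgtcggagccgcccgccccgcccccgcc
Bax: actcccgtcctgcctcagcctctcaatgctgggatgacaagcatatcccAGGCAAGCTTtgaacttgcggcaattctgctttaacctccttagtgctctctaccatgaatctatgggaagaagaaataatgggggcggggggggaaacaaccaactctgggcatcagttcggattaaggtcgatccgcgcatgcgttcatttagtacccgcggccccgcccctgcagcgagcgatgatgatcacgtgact
In the Cdkn1a window the matches lie at -73 to -64 and at -51 to -42 from the start site, which counts as a full p53 site, taken here as paired matches at most 13 bases apart. In the Mdm2 window the p53 match lies at -186 to -177 and the forkhead match at -153 to -147, and these do not overlap. Of the 38 genes, 32 had a RefSeq window; Bik, Perp, Tnfrsf10b, Zmat3, Trp53inp1 and Pmaip1 had none used here. The p53 half-site, searched on both strands over every listed start site of a gene, was found in 9 of these 32 genes (28.1%) and in 8.20% of 27025 genes. Those 9 were Aen, Bax, Bmf, Ccng1, Cdkn1a, Ei24, Mdm2, Sesn1 and Trp53. A full site of paired half-sites was found in Cdkn1a alone among them, which is 3.13% of the 32 against 0.0666% of all genes. The forkhead core GTAAACA or its complement TGTTTAC was found in Bbc3, Bcl2l11, Eda2r and Mdm2, 12.5% of the 32 against 3.54% of all genes. Of the 9 genes with the p53 half-site, Cdkn1a, Ei24, Mdm2 and Sesn1 were called higher at 54 h, while Aen, Bax, Bmf, Ccng1 and Trp53 were not called there. Over the 38 genes 44.7% were called higher there, and over all genes tested 18.5%. Sesn2, Phlda3, Plk2, Plk3, Fas, Eda2r, Bid, Bbc3, Bcl2l1, Casp8, Apaf1 and Birc2 had windows without a half-site and were called higher too. A match describes letters in the window and not binding.

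In scrambled libraries at 30 h, levels per kilobase of exon put Ccng1 at the top with 194 ± 6.1 CPM per kb (SD, n = 3) and Bmf at the bottom with 0.432 ± 0.11 CPM per kb. Among the Bcl2 family the order was Mcl1 at 102 ± 0.30, Bax at 62.9 ± 3.6, Bak1 at 38.9 ± 1.7, Bcl2l1 at 18.1 ± 1.0, Bad at 10.3 ± 0.65, Bbc3 at 7.11 ± 0.56, Bid at 5.81 ± 0.22, Bcl2 at 2.0 ± 0.070, Pmaip1 at 1.37 ± 0.58, Bcl2l11 at 0.899 ± 0.065, Bik at 0.492 ± 0.055 and Bmf at 0.432 ± 0.11 CPM per kb. The pairs Pmaip1 with Bcl2l11 and Bik with Bmf lay within their spread of each other. Mcl1 was thus the most abundant pro-survival transcript per length in these cells, and the direct effectors Bax and Bak1 stood well above every BH3-only gene.

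Foxl2 siRNA at 54 h was the comparison in which these genes changed most. Of the 38 genes, 17 were called higher and 2 lower than in scrambled libraries. The 17 higher were Mdm2; the p53 targets Cdkn1a, Sesn1, Sesn2, Phlda3, Plk2, Plk3 and Ei24; the death receptors Fas and Eda2r; the pro-death genes Bid, Bik and Bbc3; the pro-survival gene Bcl2l1; Casp8 and Apaf1; and the inhibitor of apoptosis Birc2. The 2 lower were Bad and Cycs. Over all 14907 genes 38.8% were called, 18.5% higher and 20.3% lower. The share of the 38 genes called higher, 44.7%, was thus above the background and the share called lower, 5.26%, was below it. The 38 genes were chosen with earlier results of these data known, so these shares are a description and not a test. Their median change was 0.26, against -0.01 over all genes tested. In 19 of the 38 genes every Foxl2 siRNA library lay above every scrambled library and in 2 below, against 23.5% and 27.9% of all genes. In either direction these are 21 genes, against 51.4% of all genes; 20 of the 38 had an unadjusted p under 0.05, against 47.3%. Without Foxl2 siRNA replicate 1 the number higher was 11, against 2113 of 15070 genes in that fit. Without replicate 2, which kept the most Foxl2 at this time, it was 18, against 3257 of 15076 genes. The surface epithelium sum was higher and the granulosa sum lower in the same libraries, and their part in these changes was not tested.

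Foxl2 siRNA at 30 h changed fewer of the genes. The pro-death genes Bid and Bik, the pro-survival gene Bcl2l1 and the inhibitors of apoptosis Birc2 and Birc3 were called higher, and Bad was called lower. These 6 genes are 15.8% of the 38, against 13% of all genes (6.34% higher and 6.65% lower), a share near the background. None of the 12 p53 targets of arrest and stress was called by edgeR at 30 h, 2 of them had an unadjusted p under 0.05, and DESeq2 called none of Trp53, Mdm2 or Cdkn1a. Of these, voom with quality weights called Mdm2 higher (0.32, adjusted p = 0.0016). Without the libraries that kept the most Foxl2, edgeR called Sesn1 (0.31, adjusted p = 0.00774), Mdm2 and Mdm4 higher and Mcl1 lower as well, 10 of the 38 genes in all, against 30.4% of all genes in that fit. The median change over the 38 genes was 0.08, against -0.01 over all genes. In 11 of the 38 genes the Foxl2 siRNA libraries all lay above the scrambled ones and in 2 below, against 15.3% and 17.7% of all genes (33% in either direction). An unadjusted p under 0.05 was found for 11 of the 38 genes, against 28.1% of all genes. Whether the change at 54 h was itself different from that at 30 h was tested as an interaction. By edgeR that test called 0 of the 38 genes, against 1 of all genes tested (0.00671%). Without the libraries that kept the most Foxl2, edgeR called Sesn1 (0.44, adjusted p = 0.0305) and Phlda3 (0.54, adjusted p = 0.0399), against 836 of 15062 genes. DESeq2 called 0 of the 38, against 192 of 13346 genes. With quality weights, voom called 5 of the 38, against 1056 of 14907 genes. At an unadjusted p under 0.05 edgeR found 7 of the 38 genes, against 10.1% of all genes. A call at 54 h alone therefore does not show a change that depended on time.

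Trp53 itself was called by edgeR in no comparison. Trp53 (chr11:69580359-69591873, plus strand, mm10) stood at 72.3, 72.2 and 77.3 CPM after Foxl2 siRNA and at 72.6, 72.5 and 71.1 CPM in scrambled libraries at 54 h. The 30 h values were 82.7, 75.3 and 73.8 CPM after Foxl2 siRNA, at 75.0, 73.5 and 74.9 CPM after Esr2 siRNA, and at 79.1, 69.6 and 78.4 CPM in scrambled libraries. The groups overlapped in every comparison. The change was 0.04 ± 0.06 at 54 h (95% interval -0.09 to 0.17, edgeR adjusted p = 0.657), 0.03 ± 0.06 at 30 h (-0.10 to 0.16, adjusted p = 0.79) and -0.02 ± 0.06 after Esr2 siRNA (-0.15 to 0.11, adjusted p = 0.905). Changes of the mRNA say nothing of the level of the p53 protein, which is controlled mainly by its turnover.

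Mdm2, the ubiquitin ligase that degrades p53 and is itself a p53 target, rose after Foxl2 siRNA at 54 h. Mdm2 (chr10:117688875-117710758, minus strand) stood at 281, 201 and 244 CPM after Foxl2 siRNA and at 179, 171 and 177 CPM in scrambled libraries at 54 h. At 30 h it stood at 236, 229 and 205 CPM after Foxl2 siRNA, at 154, 158 and 148 CPM after Esr2 siRNA, and at 205, 186 and 183 CPM in scrambled libraries. At 54 h all Foxl2 siRNA libraries lay above the scrambled ones, and the change was 0.46 ± 0.10, 1.38-fold (edgeR adjusted p = 0.00274). At 30 h it was 0.23 ± 0.10 (adjusted p = 0.156), and 0.28 (edgeR adjusted p = 0.00852) without the Foxl2 siRNA libraries that kept the most Foxl2. The 30 h difference was also called higher by voom with quality weights (0.32, adjusted p = 0.0016). After Esr2 siRNA the change was -0.32 ± 0.10 (adjusted p = 0.0996), uncalled although all 3 libraries lay below the scrambled ones; a fit of only the groups compared (-0.31, adjusted p = 0.023) and voom with quality weights (-0.29, adjusted p = 0.000837) called it lower. Set against each other at 30 h, Foxl2 siRNA libraries were 1.46-fold above Esr2 siRNA libraries (0.54 ± 0.10, adjusted p = 0.00214). Mdm4, the related inhibitor that blocks p53 without degrading it, was called by edgeR in no comparison of all libraries; its log2 ratios were 0.05 at 54 h and 0.24 at 30 h after Foxl2 siRNA and 0.30 after Esr2 siRNA. Without the libraries that kept the most Foxl2 it was called higher at 30 h (0.35, edgeR adjusted p = 0.00261).

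Among the p53 targets at 54 h, Cdkn1a is the p21 cell cycle inhibitor and the best-known of them. Cdkn1a (chr17:29090976-29100727, plus strand) stood at 402, 305 and 345 CPM after Foxl2 siRNA and at 241, 249 and 235 CPM in scrambled libraries at 54 h. The levels at 30 h were 335, 272 and 283 CPM after Foxl2 siRNA, at 366, 338 and 307 CPM after Esr2 siRNA, and at 280, 262 and 281 CPM in scrambled libraries. The Foxl2 siRNA libraries lay above the scrambled ones at 54 h and overlapped with them at 30 h. The change was 0.54 ± 0.10, 1.45-fold, at 54 h (edgeR adjusted p = 0.00134), 0.11 ± 0.10 at 30 h (adjusted p = 0.534) and 0.30 ± 0.10 after Esr2 siRNA (adjusted p = 0.138; called by voom with quality weights at 0.27, adjusted p = 0.00812). The interaction with time was 0.43 ± 0.15 and was not called (unadjusted p = 0.0115, adjusted p = 0.337).

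Plk2, a polo-like kinase induced by stress, had the largest change of the p53 targets at 54 h. Plk2 (chr13:110395046-110400844, plus strand) stood at 130, 56.2 and 107 CPM after Foxl2 siRNA and at 49.8, 49.4 and 48.3 CPM in scrambled libraries at 54 h. Replicate 2, with the most remaining Foxl2, lay closest to the scrambled level. The change was 0.99 ± 0.28, 1.99-fold (edgeR adjusted p = 0.013); it was no longer called without Foxl2 siRNA replicate 1 (0.73, adjusted p = 0.0691). At 30 h Plk2 stood at 74.0, 68.2 and 50.4 CPM after Foxl2 siRNA and at 77.4, 55.2 and 63.1 CPM in scrambled libraries, with overlap and a change of -0.02 ± 0.28.

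The other called p53 targets changed less. The sestrins restrain mTORC1 and oxidative stress: Sesn1 stood at 33.7, 25.4 and 33.6 CPM after Foxl2 siRNA and at 19.5, 21.0 and 19.6 CPM in scrambled libraries at 54 h (0.63 ± 0.10, edgeR adjusted p = 0.000456). Sesn2 averaged 68.6 ± 4.14 CPM after Foxl2 siRNA and 56.1 ± 5.71 CPM in scrambled libraries (0.29 ± 0.07, adjusted p = 0.00653). Phlda3, a repressor of AKT signalling, stood at 50.7, 45.9 and 51.2 CPM after Foxl2 siRNA and at 33.0, 35.6 and 33.9 CPM in scrambled libraries (0.53 ± 0.09, adjusted p = 0.000691). Each of these had no overlap between the groups at 54 h. Plk3, another polo-like kinase, changed by 0.38 ± 0.08 (adjusted p = 0.00315). Ei24, a protein of the endoplasmic reticulum, changed by 0.26 ± 0.09 (adjusted p = 0.0312) and lost its call without any single scrambled library and without Foxl2 siRNA replicate 1 (adjusted p 0.0726 to 0.146). The 5 targets that were not called at 54 h were Ccng1, Zmat3, Trp53inp1, Perp and Aen, with changes of -0.04 to 0.24. Ccng1, the target with the highest level, stood at 1049, 415 and 633 CPM after Foxl2 siRNA and at 626, 607 and 627 CPM in scrambled libraries at 54 h, so its Foxl2 siRNA libraries lay on either side of the scrambled level. At 30 h it likewise stood at 904, 568 and 467 CPM after Foxl2 siRNA and at 697, 656 and 686 CPM in scrambled libraries.

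**Figure D2:**
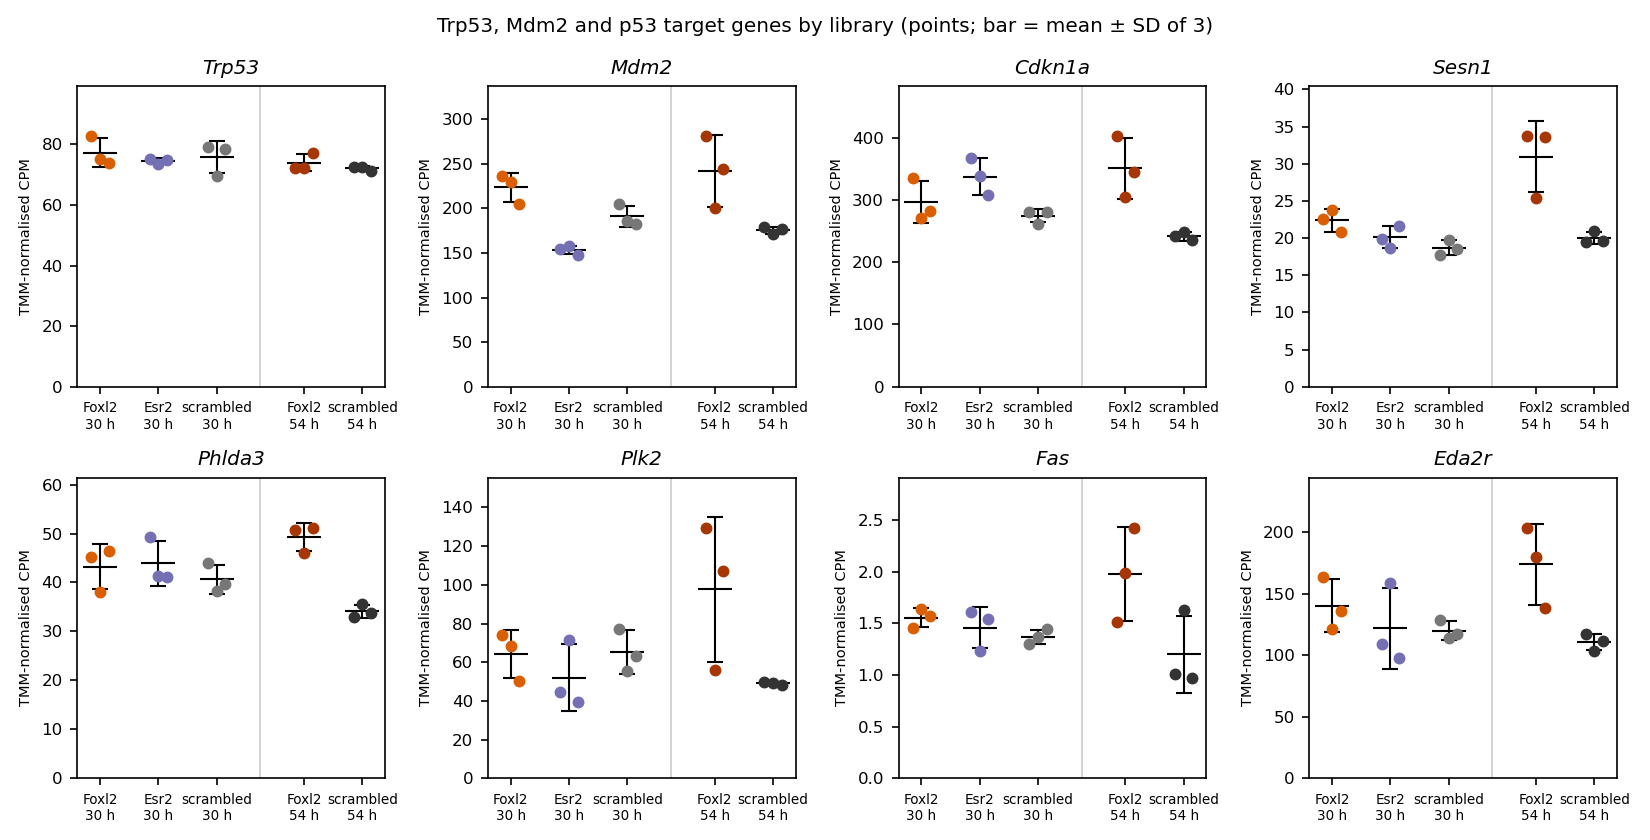
TMM-normalised CPM of Trp53, Mdm2, Cdkn1a, Sesn1, Phlda3, Plk2, Fas and Eda2r in each library (points), with the mean and SD of 3 libraries, by group. Trp53 stayed between 69.6 and 82.7 CPM in all 15 libraries, while the Foxl2 siRNA libraries at 54 h lay above the scrambled ones in Mdm2, Cdkn1a, Sesn1, Phlda3, Plk2 and Eda2r; those of Fas overlapped.

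Of the death receptors, Fas and Eda2r were called higher at 54 h and Tnfrsf10b, which encodes the mouse TRAIL receptor, was not. Fas, the receptor of FAS ligand, was the least abundant: it stood at 1.52, 1.99 and 2.43 CPM after Foxl2 siRNA and at 1.01, 1.63 and 0.969 CPM in scrambled libraries at 54 h. These groups overlapped, and the change of 0.72 ± 0.22, 1.65-fold (edgeR adjusted p = 0.0198), lost its call without Foxl2 siRNA replicate 3, without scrambled replicate 1 or 3 and in a fit of only the groups compared (adjusted p 0.077 to 0.0931). Eda2r, the receptor of ectodysplasin A2, stood at 204, 180 and 138 CPM after Foxl2 siRNA and at 117, 104 and 111 CPM in scrambled libraries at 54 h. Its groups did not overlap, with a change of 0.65 ± 0.18 (adjusted p = 0.0106) that stood at 0.52 (adjusted p = 0.0529) without Foxl2 siRNA replicate 1. Tnfrsf10b stood at 78.7, 54.3 and 54 CPM after Foxl2 siRNA and at 62.6, 62.9 and 63.9 CPM in scrambled libraries, with a change of -0.02 ± 0.15 (adjusted p = 0.934). At 30 h none of the 3 receptors was called after either siRNA.

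The pro-death Bcl2 genes did not move as one. At 54 h Bid, Bik and Bbc3 rose, Bad fell, and Bax, Bak1, Bmf, Pmaip1 and Bcl2l11 were not called; at 30 h Bid and Bik rose and Bad fell. The class median was 0.34 at 54 h and 0.07 at 30 h. Bax and Bak1, the effectors that permeabilise the mitochondrial outer membrane, were uncalled at 54 h, Bax at -0.03 ± 0.10 and Bak1 at 0.10 ± 0.07. Bax (chr7:45461697-45466898, minus strand) stood at 86.5, 92.2 and 82.4 CPM after Foxl2 siRNA and at 95.3, 86.5 and 84.9 CPM in scrambled libraries at 54 h (adjusted p = 0.843). At 30 h Bax stood at 90.3, 76.3 and 104 CPM after Foxl2 siRNA (-0.14 ± 0.10, adjusted p = 0.428), at 126, 102 and 107 CPM after Esr2 siRNA (0.17 ± 0.10, adjusted p = 0.444; called by voom with quality weights at 0.24, adjusted p = 0.0146), and at 106, 95.1 and 96.8 CPM in scrambled libraries. The groups overlapped in every comparison of Bax.

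Bik, a BH3-only gene, showed the largest change of all 38 genes in every siRNA comparison, from a low level. Bik (chr15:83526862-83544634, plus strand) stood at 10.2, 6.71 and 3.91 CPM after Foxl2 siRNA and at 1.26, 1.23 and 1.16 CPM in scrambled libraries at 54 h. At 30 h the gene stood at 1.96, 1.66 and 1.93 CPM after Foxl2 siRNA, at 0.215, 0.372 and 0.277 CPM after Esr2 siRNA, and at 0.803, 0.860 and 0.687 CPM in scrambled libraries. The groups did not overlap in any of these comparisons, and Esr2 siRNA lay on the other side of the scrambled level from Foxl2 siRNA. The 3 Esr2 siRNA libraries held 48 counts of Bik in all and the 3 scrambled libraries at 30 h 122. The change was 2.51 ± 0.28, 5.68-fold, at 54 h (edgeR adjusted p = 3.28e-05), 1.24 ± 0.29, 2.36-fold, at 30 h (adjusted p = 0.0147) and -1.44 ± 0.33, 2.72-fold lower, after Esr2 siRNA (adjusted p = 0.0266). The 30 h call was lost without scrambled replicate 3 (adjusted p = 0.0715), and the Esr2 siRNA call without any scrambled library and without Esr2 siRNA replicate 1 or 3 (adjusted p 0.0679 to 0.151). The interaction of the Foxl2 siRNA effect with time was 1.27 ± 0.40 and not called (adjusted p = 0.292).

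Bid links death receptors to mitochondria, since caspase 8 cleaves it into its active form. Bid (chr6:120891930-120916853, minus strand) stood at 28.2, 27.4 and 30.6 CPM after Foxl2 siRNA and at 24.0, 21.1 and 23.0 CPM in scrambled libraries at 54 h. The 30 h values were 27.3, 28.2 and 29.3 CPM after Foxl2 siRNA, at 16.1, 17.1 and 15.2 CPM after Esr2 siRNA, and at 20.3, 20.0 and 21.5 CPM in scrambled libraries. As with Bik, the 3 groups at 30 h were fully separated, with Foxl2 siRNA above and Esr2 siRNA below the scrambled level. The change was 0.34 ± 0.07 at 54 h (edgeR adjusted p = 0.0019), 0.45 ± 0.07 at 30 h (adjusted p = 0.00109) and -0.35 ± 0.07 after Esr2 siRNA (adjusted p = 0.0115). The Esr2 siRNA call was lost without scrambled replicate 3 and without Esr2 siRNA replicate 1 or 3 (adjusted p 0.0663 to 0.0826). Of its 3550 exonic bases, 628 are shared with Bcl2l13 on the opposite strand; whether the counting used strand is not given in the sources used here.

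Bad, a BH3-only sensitizer held inactive by phosphorylation, was the one pro-death gene called lower after Foxl2 siRNA. Bad (chr19:6941861-6951899, plus strand) stood at 20.3, 21.2 and 22.6 CPM after Foxl2 siRNA and at 27.4, 28.0 and 25.0 CPM in scrambled libraries at 54 h. At 30 h it stood at 21.3, 18.1 and 22.8 CPM after Foxl2 siRNA, at 28.7, 27.3 and 26.7 CPM after Esr2 siRNA, and at 24.5, 27.1 and 27.6 CPM in scrambled libraries. Foxl2 siRNA libraries lay below the scrambled ones at both times, by -0.33 ± 0.09 at 54 h (edgeR adjusted p = 0.00898) and -0.35 ± 0.09 at 30 h (adjusted p = 0.0184). The 30 h call was lost without scrambled replicate 2 or 3, without Foxl2 siRNA replicate 2 and in a fit of only the groups compared (adjusted p 0.0667 to 0.0897). Bad shares 524 of its 2558 exonic bases with Gpr137 on the opposite strand.

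Bbc3, which encodes the p53-induced BH3-only protein PUMA, stood at 23.5, 18.1 and 20.9 CPM after Foxl2 siRNA and at 17.9, 14.9 and 15 CPM in scrambled libraries at 54 h. Its groups did not overlap, and the change was 0.39 ± 0.11 (edgeR adjusted p = 0.0107); 4 of the alternatives put the adjusted p between 0.051 and 0.0556. Bcl2l11, which encodes BIM, a BH3-only protein that binds every pro-survival family member, stood at 8.34, 8.00 and 8.63 CPM after Foxl2 siRNA and at 8.48, 9.12 and 7.99 CPM in scrambled libraries at 54 h, with overlap and a change of -0.04 ± 0.14 (adjusted p = 0.865). At 30 h Bcl2l11 stood at 5.91, 7.29 and 6.40 CPM after Foxl2 siRNA (-0.14 ± 0.14, adjusted p = 0.561), at 4.74, 7.51 and 5.99 CPM after Esr2 siRNA (-0.25 ± 0.14, adjusted p = 0.414; called by voom with quality weights at -0.42, adjusted p = 0.0059), and at 6.63, 7.63 and 7.39 CPM in scrambled libraries. Pmaip1, which encodes the BH3-only protein NOXA, varied more within groups than between them: it stood at 4.93, 9.32 and 11.1 CPM after Foxl2 siRNA and at 2.27, 7.11 and 5.83 CPM in scrambled libraries at 54 h, where replicate 1 was lowest in both groups (0.74 ± 0.46, adjusted p = 0.23). Bmf, a BH3-only gene, was uncalled at 0.44 ± 0.21 (adjusted p = 0.119) with no overlap between the groups.

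The pro-survival Bcl2 genes each behaved differently. Bcl2l1, which encodes BCL-XL, was the only one of them that edgeR called after Foxl2 siRNA in the fit of all libraries. Bcl2l1 (chr2:152780668-152831728, minus strand) stood at 125, 125 and 110 CPM after Foxl2 siRNA and at 74.2, 80.3 and 74.0 CPM in scrambled libraries at 54 h. The levels at 30 h were 106, 101 and 109 CPM after Foxl2 siRNA, at 77.0, 67.0 and 77.6 CPM after Esr2 siRNA, and at 77.7, 86.7 and 84.3 CPM in scrambled libraries. The Foxl2 siRNA groups lay apart from the scrambled ones at both times, with changes of 0.66 ± 0.07, 1.58-fold, at 54 h (edgeR adjusted p = 2.64e-05) and 0.34 ± 0.07, 1.27-fold, at 30 h (adjusted p = 0.00859). After Esr2 siRNA the change was -0.17 ± 0.07 (adjusted p = 0.254). The counts do not separate the long and the short BCL-X isoform.

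Mcl1, which encodes a short-lived survival protein, split the Foxl2 siRNA libraries. Mcl1 (chr3:95658788-95663176, plus strand) stood at 213, 381 and 198 CPM after Foxl2 siRNA and at 336, 347 and 338 CPM in scrambled libraries at 54 h. At 30 h the gene stood at 191, 188 and 360 CPM after Foxl2 siRNA, at 388, 425 and 390 CPM after Esr2 siRNA, and at 347, 349 and 348 CPM in scrambled libraries. In the 4 Foxl2 siRNA libraries with 25.2 to 33.8 CPM of Foxl2, Mcl1 lay far below every scrambled library, and in the other two, with 65.4 and 57.5 CPM of Foxl2, it lay above every scrambled library. Over all libraries edgeR made no call, with -0.37 ± 0.25 at 54 h (adjusted p = 0.27) and -0.50 ± 0.25 at 30 h (adjusted p = 0.214), while voom with quality weights, which weights libraries unequally, called it lower at both times (-0.65 at 54 h and -0.74 at 30 h). Without replicate 2 at 54 h the change was -0.72 (edgeR adjusted p = 0.0161), and without replicate 3 at 30 h it was -0.88 (edgeR adjusted p = 0.0149). With both left out it was -0.73 at 54 h (edgeR adjusted p = 1.05e-06) and -0.88 at 30 h (edgeR adjusted p = 1.29e-06). These 2 libraries differ from the other 4 in remaining Foxl2 and may differ in siRNA pool, which the labels do not give; these cannot be told apart. Birc2 in the same 2 libraries lay between the other Foxl2 siRNA libraries and the scrambled ones.

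**Figure D3:**
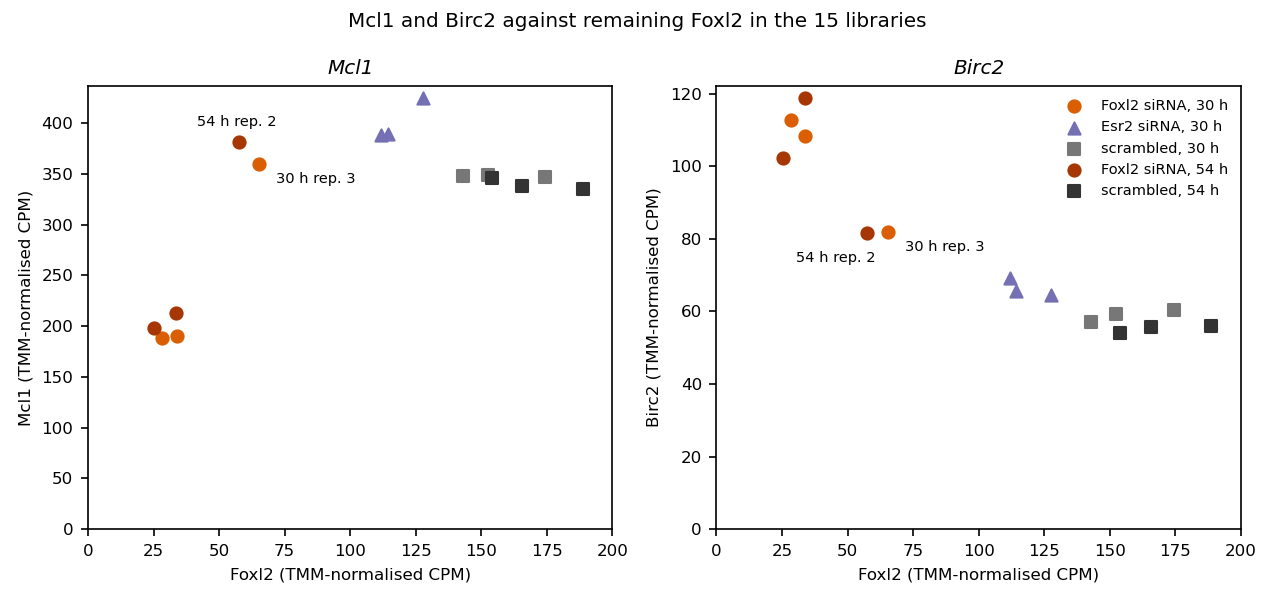
Mcl1 (left) and Birc2 (right) against Foxl2, all in TMM-normalised CPM, 1 point per library, with the group shown by colour and shape. The Foxl2 siRNA libraries that kept the most Foxl2 (30 h replicate 3 and 54 h replicate 2) sit at 360 and 381 CPM of Mcl1, above all scrambled libraries, while their Birc2 of 81.8 and 81.5 CPM lies between the other Foxl2 siRNA libraries and the scrambled ones.

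Bcl2, the founding survival gene of the family, stood at 26.2, 19.9 and 24.0 CPM after Foxl2 siRNA and at 19.3, 16.6 and 18.4 CPM in scrambled libraries at 54 h. At 30 h Bcl2 (chr1:106538178-106714274, minus strand) stood at 16.2, 16.7 and 13.9 CPM after Foxl2 siRNA, at 8.5, 15.1 and 10.0 CPM after Esr2 siRNA, and at 18.8, 18.6 and 17.6 CPM in scrambled libraries. The Foxl2 siRNA libraries lay above the scrambled ones at 54 h and below them at 30 h, and the Esr2 siRNA libraries lay below. The change was 0.37 ± 0.17 at 54 h (edgeR adjusted p = 0.107), -0.24 ± 0.17 at 30 h (adjusted p = 0.403) and -0.71 ± 0.17, 1.64-fold lower, after Esr2 siRNA (adjusted p = 0.0345). The 54 h difference was called higher by voom with quality weights (0.42, adjusted p = 0.00539), by edgeR without Foxl2 siRNA replicate 2 (0.47, adjusted p = 0.0494) and without both libraries that kept the most Foxl2 (0.47, adjusted p = 0.0483). The Esr2 siRNA call was lost in 7 of the alternatives, among them the fit with a replicate block (adjusted p = 0.0531) and each fit without a scrambled library (adjusted p 0.0999 to 0.115).

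**Figure D4:**
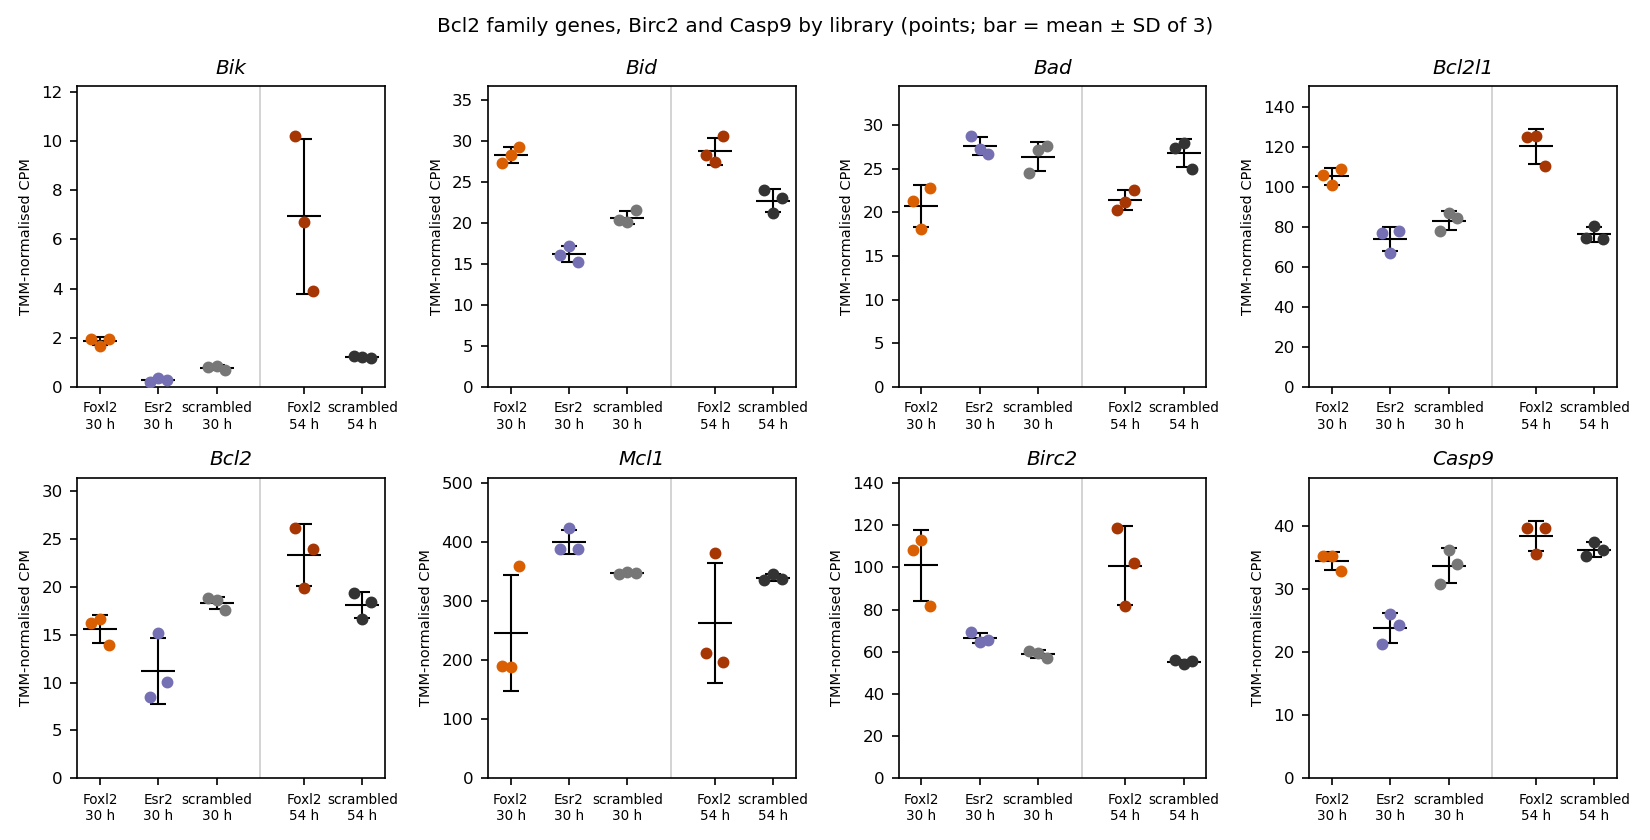
TMM-normalised CPM of genes of the Bcl2 family, caspases and inhibitors of apoptosis in each library (points), with the mean and SD of 3 libraries, by group. Bik and Bid at 30 h show Foxl2 siRNA above and Esr2 siRNA below the scrambled level, and Bcl2l1 lies between 101 and 125 CPM in all Foxl2 siRNA libraries, against 67.0 to 86.7 CPM in all others.

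Among the caspases and the apoptosome, Casp8 and Apaf1 rose and Cycs fell after Foxl2 siRNA at 54 h, while Casp9 and Diablo were not called by edgeR; at 30 h edgeR called none. Casp8, the initiator caspase of the death receptors (chr1:58795374-58847503, plus strand), stood at 58.7, 53.2 and 55.5 CPM after Foxl2 siRNA and at 45, 46.9 and 48.4 CPM in scrambled libraries at 54 h (0.26 ± 0.08, edgeR adjusted p = 0.0243). At 30 h Casp8 stood at 53.1, 51.7 and 53.1 CPM after Foxl2 siRNA (0.15 ± 0.08, adjusted p = 0.245), at 39.9, 49.8 and 38.5 CPM after Esr2 siRNA (-0.15 ± 0.08, adjusted p = 0.376), and at 48.4, 47.6 and 46.2 CPM in scrambled libraries. The Foxl2 siRNA libraries lay above the scrambled ones at both times, although edgeR did not call the 30 h difference, which voom with quality weights did (0.18, adjusted p = 0.0274). After Esr2 siRNA, Casp8 was called lower by voom (-0.22, adjusted p = 0.00421) and by edgeR without Esr2 siRNA replicate 2 (-0.27, adjusted p = 0.0142). Apaf1, the scaffold of the apoptosome, stood at 97.9, 91.9 and 85.4 CPM after Foxl2 siRNA and at 78.7, 70.9 and 73.7 CPM in scrambled libraries at 54 h (0.30 ± 0.09, adjusted p = 0.0133). Cycs, which encodes somatic cytochrome c, stood at 155, 155 and 160 CPM after Foxl2 siRNA and at 183, 185 and 185 CPM in scrambled libraries (-0.24 ± 0.07, adjusted p = 0.0221). These 3 changes were small, and each call was lost without at least 1 single library (adjusted p 0.0517 to 0.0909). Cycs has processed copies elsewhere in the genome that could share its reads, so its level is uncertain.

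Casp9, the initiator caspase of the mitochondrial pathway (chr4:141793612-141815976, plus strand), stood at 39.7, 35.6 and 39.7 CPM after Foxl2 siRNA and at 35.2, 37.4 and 36.2 CPM in scrambled libraries at 54 h. The 30 h values were 35.3, 35.2 and 32.9 CPM after Foxl2 siRNA, at 21.3, 26.0 and 24.4 CPM after Esr2 siRNA, and at 30.8, 36.3 and 34 CPM in scrambled libraries. The Esr2 siRNA libraries lay below all others, and the change was -0.50 ± 0.08, 1.41-fold lower (edgeR adjusted p = 0.0036). After Foxl2 siRNA the groups overlapped, with changes of 0.08 ± 0.08 at 54 h (adjusted p = 0.46) and 0.03 ± 0.08 at 30 h (adjusted p = 0.839).

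Of the inhibitors of apoptosis, Birc2 rose at both times after Foxl2 siRNA, Birc3 at 30 h, and Xiap, the direct caspase inhibitor, at neither. Birc2 (chr9:7818227-7837064, minus strand) and its neighbour Birc3 (chr9:7848699-7873186, minus strand) encode the cellular inhibitors cIAP1 and cIAP2, ubiquitin ligases of tumour necrosis factor signalling. Birc2 stood at 119, 81.5 and 102 CPM after Foxl2 siRNA and at 56.0, 54 and 55.6 CPM in scrambled libraries at 54 h (0.87 ± 0.13, 1.83-fold, edgeR adjusted p = 0.0002). At 30 h Birc2 stood at 108, 113 and 81.8 CPM after Foxl2 siRNA (0.78 ± 0.13, adjusted p = 0.00164), at 69.3, 64.5 and 65.7 CPM after Esr2 siRNA (0.18 ± 0.13, adjusted p = 0.538), and at 60.4, 59.2 and 57.0 CPM in scrambled libraries. All 6 Foxl2 siRNA libraries lay above all others. Birc3 stood at 19.4, 17.6 and 18.1 CPM after Foxl2 siRNA and at 14.8, 15.8 and 15.6 CPM in scrambled libraries at 30 h (0.26 ± 0.07, adjusted p = 0.0326), a call that was lost in 6 of the alternatives (adjusted p 0.0597 to 0.131). At 54 h Birc3 averaged 16.8 ± 0.62 CPM after Foxl2 siRNA and 14.8 ± 0.61 CPM in scrambled libraries (0.18 ± 0.07, adjusted p = 0.0606). For Xiap the log2 ratio was 0.05 ± 0.07 at 54 h and 0.11 ± 0.07 at 30 h.

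**Figure D5:**
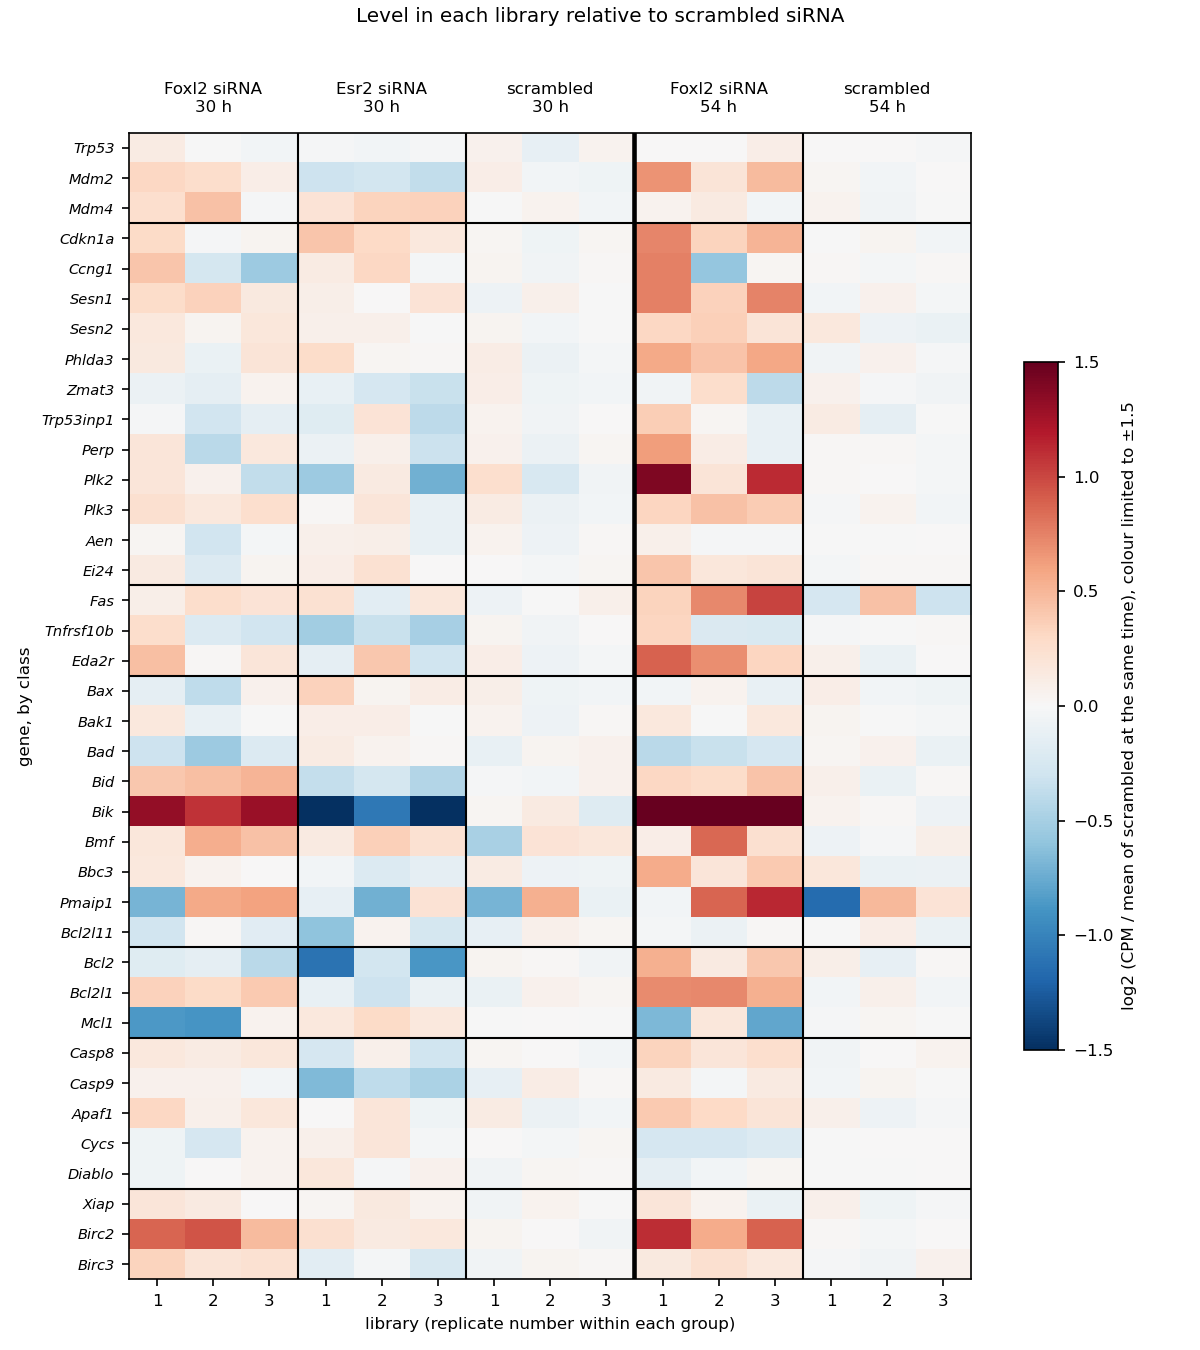
Log2 level of each of the 38 genes in each of the 15 libraries relative to the mean of the scrambled libraries of the same time (colour, limited to 1.5 in either direction), with genes ordered by class and libraries by group. In Mcl1, replicate 3 at 30 h and replicate 2 at 54 h stand apart from the other Foxl2 siRNA libraries, at 360 and 381 CPM against 188 to 213 CPM.

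After Esr2 siRNA at 30 h, 4 of the 38 genes were called and each was lower: the pro-death genes Bid and Bik, the survival gene Bcl2 and Casp9. These are 10.5% of the genes, against 4.23% of all genes called, 1.13% higher and 3.11% lower; the median of the 38 was 0.03, against -0.01 over all genes. In 4 of the 38 genes every Esr2 siRNA library lay above every scrambled library and in 8 below, against 14.2% and 15.2% of all genes (29.5% in either direction). An unadjusted p under 0.05 was found for 9 of the 38 genes, against 17.6% of all genes. No p53 target, death receptor or inhibitor of apoptosis was called by edgeR. The calls other than Casp9 depended on single libraries. Leaving out 1 library at a time left 1 to 5 of the 38 genes called, against 238 to 1030 of all genes. Casp9 kept its call in each of these fits. The surface epithelium markers summed to 483 to 487 CPM after Esr2 siRNA, against 450 to 475 CPM in scrambled libraries.

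Foxl2 siRNA was also set directly against Esr2 siRNA at 30 h, since both comparisons above share the scrambled libraries. Mdm2, Bid, Bik, Bcl2l1, Casp8, Casp9, Birc2 and Birc3 were called higher in Foxl2 siRNA libraries and Bad lower, 23.7% of the 38 against 20.4% of all genes called, 11.1% higher and 9.34% lower. The differences were 2.68 ± 0.32 for Bik, 6.42-fold (edgeR adjusted p = 0.000119), and 0.81 ± 0.07 for Bid, 1.75-fold (adjusted p = 9.62e-06). Birc2 differed by 0.60 ± 0.13 (adjusted p = 0.0048), Casp9 by 0.53 ± 0.08 (adjusted p = 0.000686) and Bcl2l1 by 0.51 ± 0.07 (adjusted p = 0.000419). Birc3 differed by 0.39 ± 0.07 (adjusted p = 0.00202), Casp8 by 0.30 ± 0.08 (adjusted p = 0.0196, or 0.0554 to 0.113 in 4 of the alternatives) and Bad by -0.41 ± 0.09 (adjusted p = 0.0047). Against scrambled, edgeR on all libraries had called Casp9 after Esr2 siRNA alone and Bcl2l1, Birc2, Birc3 and Bad after Foxl2 siRNA alone. It had called Bid and Bik after both, in opposite directions, and Mdm2 and Casp8 after neither. Groups did not overlap in 10 genes with Foxl2 siRNA above and 2 below, against 16.9% and 17.9% of all genes (34.8% in either direction), and 15 genes had an unadjusted p under 0.05, against 34.4%. The p53 targets as a class had 0 of 12 called, and Cdkn1a differed by -0.19 ± 0.10 (adjusted p = 0.219).

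Between 54 h and 30 h in scrambled libraries, 0 of the 38 genes were called by edgeR in the fit of all groups, against 1 of 14907 genes (0.00671%). In that fit 5 had an unadjusted p under 0.05, against 4.88% of all genes. DESeq2 called 0 of the 38, against 60 of 15334 genes, and voom with quality weights called 13, against 2693 of 14907 genes. Groups did not overlap in 18 genes, against 22.7% of all genes, and 13 of these lay below, against 11.2%. Same-numbered scrambled libraries met the rule for pairing given below, but the numbers did not single out every pair. The deviations of replicate 3 at 54 h correlated at 0.175 with replicate 3 at 30 h and at 0.224 with replicate 2. A fit of those 6 libraries alone, with the replicate number as a block, was an alternative chosen after the data were seen. In it 14 of the 38 were called, 36.8% against 11% of 14407 genes. Bik, Bmf and Xiap were higher at 54 h in that fit and Cdkn1a, Ccng1, Phlda3, Zmat3, Plk2, Aen, Ei24, Tnfrsf10b, Eda2r, Bax and Bcl2l1 were lower. These 11 are 28.9% of the 38, against 4.79% of all genes called lower and 6.22% called higher. The sizes were small: Cdkn1a averaged 242 ± 7.00 CPM at 54 h and 275 ± 10.8 CPM at 30 h, a change of -0.18 ± 0.04 (adjusted p = 0.0226 in the fit with the block), and Plk2 changed by -0.40 ± 0.07 (adjusted p = 0.00684). Of the 7 p53 targets called lower with time in scrambled cells, Cdkn1a, Phlda3, Plk2 and Ei24 were among those higher after Foxl2 siRNA at 54 h, a comparison that shares the scrambled libraries at 54 h.

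Of 30 other p53 targets that are not among the 38 genes, 28 were tested. At 54 h 10 were called higher after Foxl2 siRNA and 4 lower, and at 30 h 4 were called higher and 0 lower. These are 50% of the 28 at 54 h, against 38.8% of all genes, and 14.3% at 30 h, against 13%. Lif, a cytokine of the interleukin 6 family, stood at 47.6, 23.0 and 45.9 CPM after Foxl2 siRNA and at 11.7, 11.1 and 10.4 CPM in scrambled libraries at 54 h (1.81 ± 0.25, 3.5-fold, edgeR adjusted p = 0.000124), and was also higher at 30 h (1.06 ± 0.24, adjusted p = 0.013). Replicate 2 again lay closest to the scrambled level. At 54 h Cdkn2a, a cell cycle inhibitor locus, changed by 1.18 ± 0.22 (adjusted p = 0.00127) and Ddit4, an inhibitor of mTORC1, by 1.02 ± 0.18 (adjusted p = 0.000741). At 30 h Ptprv, a phosphatase, changed by 0.73 ± 0.22 (adjusted p = 0.0464) and Btg2, an antiproliferative gene, by 0.72 ± 0.16 (adjusted p = 0.011). Lower at 54 h were the glutaminase Gls2 (-1.36 ± 0.33, adjusted p = 0.00583), the arrest gene Rprm (-0.82 ± 0.15, adjusted p = 0.00107) and the mitotic spindle gene Ckap2 (-0.57 ± 0.19, adjusted p = 0.0308). The median change of this list was 0.12 at 54 h and 0.04 at 30 h.

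Of 30 other genes of the apoptosis machinery, 26 were tested, and 4 were called higher and 6 lower at 54 h, against 1 higher and 2 lower at 30 h. The 10 genes called at 54 h are 38.5% of the 26, against 38.8% of all genes, and 3 of 26 at 30 h lies near the 13% of all genes, so these shares are near the background. Higher at 54 h were the death receptor gene Tnfrsf21 (0.94 ± 0.22, edgeR adjusted p = 0.00428), the co-chaperone gene Bag3 (0.50 ± 0.07, adjusted p = 9.89e-05) and Aifm1, which encodes apoptosis-inducing factor (0.21 ± 0.05, adjusted p = 0.00795). Lower were Dffa, the inhibitor of the caspase-activated DNase (-0.76 ± 0.16, adjusted p = 0.00286), Birc5, which encodes survivin (-0.74 ± 0.18, adjusted p = 0.00669), and the effector caspase gene Casp6 (-0.58 ± 0.19, adjusted p = 0.0256). At 30 h Bag3 was higher (0.25 ± 0.07, adjusted p = 0.0291) and Dffa (-0.61 ± 0.16, adjusted p = 0.028) and Bag1 (-0.31 ± 0.07, adjusted p = 0.0154) were lower. The median of the list was -0.05 at 54 h and -0.04 at 30 h. After Esr2 siRNA, Btg2 was called higher and Rprm lower among the other p53 targets.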

How the data were processed

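The authors deposited raw counts of reads per gene for 15 libraries (TruSeq stranded mRNA kit, 1.3 µg of RNA, single 75-base reads, per the labels' protocols). Per the submitters' processing notes, the tools included TopHat2, DESeq2 and bcl2fastq 2.15.0, with mm10 as the genome; how reads were assigned to genes, and whether strand was used, is not given in the sources used here. The 92 ERCC spike-ins (0.105% to 0.352% of counts) entered neither library sizes nor tests, and 15 gene symbols that 1 library held as dates were read from the row order of the other libraries. A count of 3 corresponds to 0.0504 to 0.0667 CPM, a floor for counting error only. Replicates differed by more than sampling noise (chi-square per degree of freedom 6.85 to 122).

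One edgeR 4.0.16 model (R 4.3.3; TMM scaling, default expression filter, quasi-likelihood, two-sided, 5 group means, 10 residual degrees of freedom) gave all comparisons, with Benjamini-Hochberg adjustment over 14907 genes. Standard errors are the log2 change over the square root of F. Alternatives were DESeq2 1.42.0, voom with quality weights in limma 3.58.1, other scalings, no filter, only the groups compared, a replicate block and leaving out libraries. The steps were tested on simulated data. Positions, exon lengths and overlaps are from GENCODE for mm10, and promoters from RefSeq for GRCm38.p6.

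The genes, their classes and the other lists were chosen with earlier results of these data known. Every called member is named; Trp53, Cdkn1a, Mdm2, Bax, Bcl2l11, Bcl2, Mcl1, Casp8 and Casp9 are given in full whatever their result, with the called member of largest change in each direction, class and Foxl2 comparison, and at most the 3 largest changes in each direction of the other lists. Same-numbered libraries count as paired where every pair's deviations correlated above 0.1. This held for scrambled libraries at 54 h and 30 h (0.175 to 0.732) and for no other comparison; it comes from the data and the numbers in the titles, not from a stated design.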

Additional observations from a re-analysis of the deposited data

Results flagged for a closer look

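Bcl2 was noted because its libraries moved in opposite directions at the 2 times after Foxl2 siRNA: all 3 libraries lay above the scrambled ones at 54 h and all 3 below at 30 h. The interaction with time was 0.60 ± 0.24 on the log2 scale (edgeR, unadjusted p = 0.0268, adjusted p = 0.421), so it did not pass the adjusted threshold.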

How the results depend on the processing

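Counts of called members are over the 38 genes. After Foxl2 siRNA at 30 h, 5 genes were higher and 1 lower. Voom gave 12 and 2, beside 5252 of 14907 genes called. Leaving out Foxl2 siRNA replicate 3 at 30 h with replicate 2 at 54 h gave 8 and 2 (10 of 38, against 30.4% of all genes). A fit of only the groups compared gave 4 and 0, beside 1440 of 14390 genes called. Leaving out 1 library gave 3 to 6 higher and 0 to 2 lower, beside 898 to 3016 of all genes called. At 54 h, 17 were higher and 2 lower. Leaving out 1 library gave 11 to 18 higher and 1 to 3 lower, beside 4424 to 6752 of all genes called. After Esr2 siRNA 4 were called, and 15 with voom (beside 4731 of 14907 genes). With only the groups compared it was 7 (beside 1131 of 14423 genes) and with the replicate block 3 (beside 607 of 14907 genes). Without 1 library it was 1 to 5 (beside 238 to 1030 of all genes). Foxl2 against Esr2 siRNA gave 9, and 17 with voom (beside 5446 of 14907 genes). Without the 2 libraries it gave 15 (beside 5133 of 15062 genes) and with the block 10 (beside 3012 of 14907 genes). Without 1 library it gave 8 to 13 (beside 1767 to 3647 of all genes). The difference between the Foxl2 changes at 54 h and 30 h gave 0, and 5 with voom (beside 1056 of 14907 genes). Without both libraries it gave 2 (beside 836 of 15062 genes), Sesn1 (0.44, edgeR adjusted p = 0.0305) and Phlda3 (0.54, edgeR adjusted p = 0.0399). Leaving out 1 library gave 0 to 3, the 3 without Foxl2 siRNA replicate 2 at 54 h (beside 904 of 15076 genes). Scrambled 54 h against 30 h gave 0, and 13 with voom (beside 2693 of 14907 genes). It gave 0 with the replicate block in the fit of all groups. With the block in scrambled libraries alone it gave 14 (beside 1586 of 14407 genes). The block changed 1 further call among the genes given in full, Bcl2 after Esr2 siRNA (adjusted p = 0.0531). The cause of these differences was not tested.

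Uncalled changes near 0 changed sign. Leaving out 1 library moved Trp53 at 30 h between -0.023 and 0.072, Casp9 at 30 h between -0.019 and 0.091, Bax at 54 h between -0.075 (with both libraries left out) and 0.030, Bcl2l11 at 54 h between -0.076 and 0.015, and Trp53 after Esr2 siRNA between -0.078 and 0.016. Bcl2l11 at 54 h was 0.038 with voom, and Trp53 after Esr2 siRNA was 0.012 with upper-quartile scaling. Over all genes, voom called 5252 at 30 h, 4731 after Esr2 siRNA, 5446 between the siRNAs, 2693 between times and 1056 for the difference of changes, where edgeR called 1936, 631, 3042, 1 and 1; DESeq2 called 1098, 60 and 192 after Esr2 siRNA, between times and for the difference, and only the groups compared gave 1131 after Esr2 siRNA, 206 between times and 1625 between the siRNAs. Upper-quartile scaling moved the share of called genes that were higher to 60.1% at 30 h, against 48.8%, and to 38.7% after Esr2 siRNA, against 26.6%. Genes of few counts, such as Bik and Fas, are limited by depth, and 3 libraries per group limit all of them.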
